A study of Mus musculus with 21 samples.

Results

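The 9 genes described here code for proteins of the basement membrane, the thin sheet of extracellular matrix under epithelia that primitive endoderm cells are known for laying down. They are the laminin chains Lama1, Lamb1 and Lamc1, the type IV collagen chains Col4a1 and Col4a2, the nidogens Nid1 and Nid2, the proteoglycan perlecan (Hspg2) and the secreted matrix protein Sparc. They were taken by gene name, and every one was found in all 21 tables. They are 9 of 32285 genes in the time course tables and 9 of 25239 in those of the Cyp26a1 set, and all 9 passed the filter on low values in both sets.

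As background, an α, a β and a γ laminin chain join in the cell into a trimer, and the products of Lama1, Lamb1 and Lamc1 form laminin-111, the main laminin of the early embryo. Laminin binds receptors at the cell surface and polymerises there, while a separate network forms from trimers of α1 and α2 collagen IV chains. Nidogens and perlecan tie these networks together, and in the mouse embryo parietal endoderm, a descendant of primitive endoderm, builds the thick Reichert's membrane from the same proteins.

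Polyadenylated RNA of mouse embryonic stem cells (ESCs) was sequenced in 7 groups of 3 libraries, and levels were deposited as TPM, a unit scaled for gene length and for the library's total so that genes can be compared within a library. ESCs are pluripotent cells of the early embryo, kept here with serum, LIF and the kinase inhibitors PD0325901 and CHIR99021, together called 2i. In the time course all cells were wild type: ESC_0h was the start, noRA_12h and noRA_24h had lost LIF and 2i for 12 h or 24 h, and RA_12h and RA_24h had received 2 µM retinoic acid (RA), a vitamin A derivative that drives differentiation, for the same times. In the Cyp26a1 set, wild type and Cyp26a1 knockout cells all had 24 h of 2 µM RA after LIF and 2i were withdrawn. The labels name no line beyond ESC and no knockout clone, leave unsaid if the time course cells given RA kept LIF and 2i, and number the replicates without calling them separate cultures. All p-values therefore measure the spread between these libraries, which may be technical.

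Each value below is of a whole gene, over the mm10 span that the time course tables give. The laminin genes are Lama1 at chr17:67697259-67822647 (plus strand), Lamb1 at chr12:31265234-31329644 (plus strand) and Lamc1 at chr1:153218922-153332786 (minus strand). The collagen genes are Col4a1 at chr8:11198423-11312826 (minus strand) and Col4a2 at chr8:11312805-11449287 (plus strand). The nidogen genes are Nid1 at chr13:13437551-13512269 (plus strand) and Nid2 at chr14:19751265-19811787 (plus strand). Hspg2 lies at chr4:137468769-137570630 (plus strand) and Sparc lies at chr11:55394500-55423183 (minus strand).

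Promoter windows of 300 bases, from 250 before to 50 after RefSeq's start of the gene, were found in RefSeq (GRCm38.p6) for 6 of the 9 genes. These starts are those of the Cyp26a1 set tables for all 6. The time course tables start Lamb1, Nid1 and Hspg2 at most 59 bases further upstream, and Sparc 3103 bases further upstream, so the Sparc window lies inside the span given above. Col4a1 and Col4a2 lie head to head on chromosome 8, and their starts are 21 bases apart. Both windows are shown because the pair moved together in the data below. Capitals mark the 78 bases that the windows share (chr8:11312777-11312854), which are reverse complements of each other.
Col4a1 (chr8:11312777-11313076, minus strand): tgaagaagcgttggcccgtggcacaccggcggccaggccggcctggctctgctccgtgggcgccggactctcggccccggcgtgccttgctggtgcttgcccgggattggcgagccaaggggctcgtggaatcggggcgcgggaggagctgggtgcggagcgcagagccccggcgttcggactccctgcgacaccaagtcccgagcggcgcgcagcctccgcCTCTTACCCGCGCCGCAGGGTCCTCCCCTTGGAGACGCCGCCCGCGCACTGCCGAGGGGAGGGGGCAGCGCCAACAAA
Col4a2 (chr8:11312555-11312854, plus strand): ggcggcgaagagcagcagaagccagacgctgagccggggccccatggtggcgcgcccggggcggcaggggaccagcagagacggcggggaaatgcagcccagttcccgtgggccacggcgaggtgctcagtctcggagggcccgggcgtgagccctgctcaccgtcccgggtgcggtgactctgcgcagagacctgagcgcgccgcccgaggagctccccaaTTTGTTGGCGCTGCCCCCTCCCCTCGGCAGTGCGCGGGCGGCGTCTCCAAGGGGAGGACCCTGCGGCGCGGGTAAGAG

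The windows of Lamb1, which was higher after 24 h of RA, and of Sparc, which was lower, are shown beside them, with GC boxes (GGGCGG on either strand) in capitals.
Lamb1 (chr12:31265043-31265342, plus strand): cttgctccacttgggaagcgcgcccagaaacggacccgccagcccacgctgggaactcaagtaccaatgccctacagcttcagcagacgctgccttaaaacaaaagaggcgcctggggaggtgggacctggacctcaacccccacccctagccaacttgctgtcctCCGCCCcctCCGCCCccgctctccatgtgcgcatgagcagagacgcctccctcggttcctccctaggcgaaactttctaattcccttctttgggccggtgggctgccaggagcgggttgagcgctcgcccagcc
Sparc (chr11:55420031-55420330, minus strand): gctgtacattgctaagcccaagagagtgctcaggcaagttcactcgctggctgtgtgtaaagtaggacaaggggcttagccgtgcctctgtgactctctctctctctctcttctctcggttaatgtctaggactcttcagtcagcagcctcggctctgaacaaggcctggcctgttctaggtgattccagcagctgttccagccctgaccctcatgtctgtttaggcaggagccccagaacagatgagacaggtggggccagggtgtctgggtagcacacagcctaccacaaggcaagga
A GC box stood in 5 of the 6 windows, all but that of Sparc at its RefSeq start, against 35.7% of 32851 mouse promoter windows of the same length. Hspg2 held 5 of them, and the stretch shared by Col4a1 and Col4a2 held 1. CCAAT was found in 4 of the 6 windows, those of Lamb1, Col4a1, Col4a2 and Nid1, against 37.4% of all windows. The TATA box (TATAAA) was in none of the 6 and in 13.6% of all windows. Likewise none held the core that GATA factors bind (GATAA), present in 25.4%. The core that nuclear receptors bind (AGGTCA) was also missing from all 6, against 16.3% of all windows that hold it. The SOX core (ACAAT) stood in none of the 6 and in 31.0% of all. Both strands were read, and matches of different motifs did not overlap in these windows. Lama1, Lamc1 and Nid2 were not looked at in this way.

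Time course libraries held 2.96 to 3.91 gigabases of aligned reads, and those of the Cyp26a1 set held 2.72 to 3.24. Within a group, libraries correlated with a Pearson r of 0.958 or more in log2(TPM + 1) over genes, which are not independent replicates. Among the time course libraries, RA_24h replicate 2 and noRA_12h replicate 1 stood furthest from their groups. Cyp26a1, the enzyme that degrades RA, stood at 595 ± 10.8 TPM (SD, n = 3) in wild type and 4.52 ± 0.458 TPM in knockout cells, as the labels say. In the time course it was listed at 0 in ESC_0h and reached 121 ± 1.70 TPM in RA_12h and 313 ± 28.7 TPM in RA_24h.

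The basement membrane genes were expressed before any RA was given. Their summed level was 919.7 to 1043 TPM in ESC_0h, 1176 to 1215 TPM in noRA_12h and 958.8 to 986.8 TPM in RA_12h. At 24 h the sums of the groups overlapped, with 765.8 to 839.3 TPM without and 775.5 to 894.3 TPM with RA. Sparc, Nid2 and Lamc1 made up most of each sum, and the sum hides opposite movements of its members. Every ESC_0h sum lay above every RA_24h sum, and the genes are called basement membrane genes below because their level alone did not mark primitive endoderm. In ESC_0h Gata6 and Sox17, transcription factors that specify primitive endoderm, stood at 0.630 and 0.107 TPM, while Lamc1, Nid2 and Sparc stood at 203 TPM or more in every library of that group.

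Lama1, the α chain of laminin-111, had the widest range of group means, as a ratio, of the 9 genes in the time course. Its level was 77.5, 65.6 and 74.6 TPM in the 3 ESC_0h libraries, 7.76, 6.28 and 6.97 TPM in noRA_12h and 3.37, 3.68 and 3.05 TPM in noRA_24h. With RA it was 7.07, 7.61 and 8.05 TPM at 12 h and 37.1, 35.1 and 32.3 TPM at 24 h. It was thus high at the start, low in both 12 h groups, whose ranges overlap, and high again only in the 24 h group that received RA. At 24 h the mean TPM with RA was 10.4 times that without, a difference of 3.04 ± 0.0999 (SE) on the log2(TPM + 1) scale with an adjusted p of 1.18e-10 (limma, Benjamini-Hochberg over all genes tested). At 12 h the difference was 0.10 ± 0.0999 with an adjusted p of 0.521, and the RA effect at 24 h exceeded that at 12 h by 2.93 ± 0.141 (adjusted p = 1.58e-07). RA_24h still lay below ESC_0h, by a log2 change of -1.04 ± 0.0999 (adjusted p = 1.53e-06).

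Lamb1, the β chain, started low and was highest at 24 h in both media. Its level was 10.9, 9.98 and 10.05 TPM in ESC_0h, 16.5, 13.9 and 14.7 TPM in noRA_12h and 39.4, 38.2 and 31.8 TPM in noRA_24h. In the RA groups it was 11.4, 11.4 and 12.5 TPM at 12 h and 58.3, 57.4 and 49.6 TPM at 24 h. No 2 neighbouring groups overlapped, RA_24h was highest, and RA_12h lay between ESC_0h and noRA_12h. The difference with RA was -0.33 ± 0.0991 at 12 h (limma, adjusted p = 0.0372) and 0.58 ± 0.0991 at 24 h (adjusted p = 4.89e-04). The 12 h call was lost without noRA_12h replicate 1 or 3 or any RA_12h library, with an adjusted p as high as 0.149.

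Lamc1, the γ chain shared by most laminins, was the most abundant laminin chain in every library. Its level was 248, 208 and 236 TPM in ESC_0h, 172, 157 and 163 TPM in noRA_12h and 152, 149 and 130.2 TPM in noRA_24h. With RA its level was 119, 122 and 132 TPM at 12 h and 179.9, 165 and 159 TPM at 24 h. ESC_0h stood above all other groups, RA_24h overlapped noRA_12h, and noRA_24h overlapped RA_12h. The RA difference was -0.40 ± 0.0804 at 12 h (limma, adjusted p = 0.00354) and 0.22 ± 0.0804 at 24 h (adjusted p = 0.0479). The 24 h difference was the least firm of the calls at that time, since 8 of the 15 fits that left out 1 library did not make it, with an adjusted p of up to 0.198 (without noRA_24h replicate 3).

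**Figure D1:**
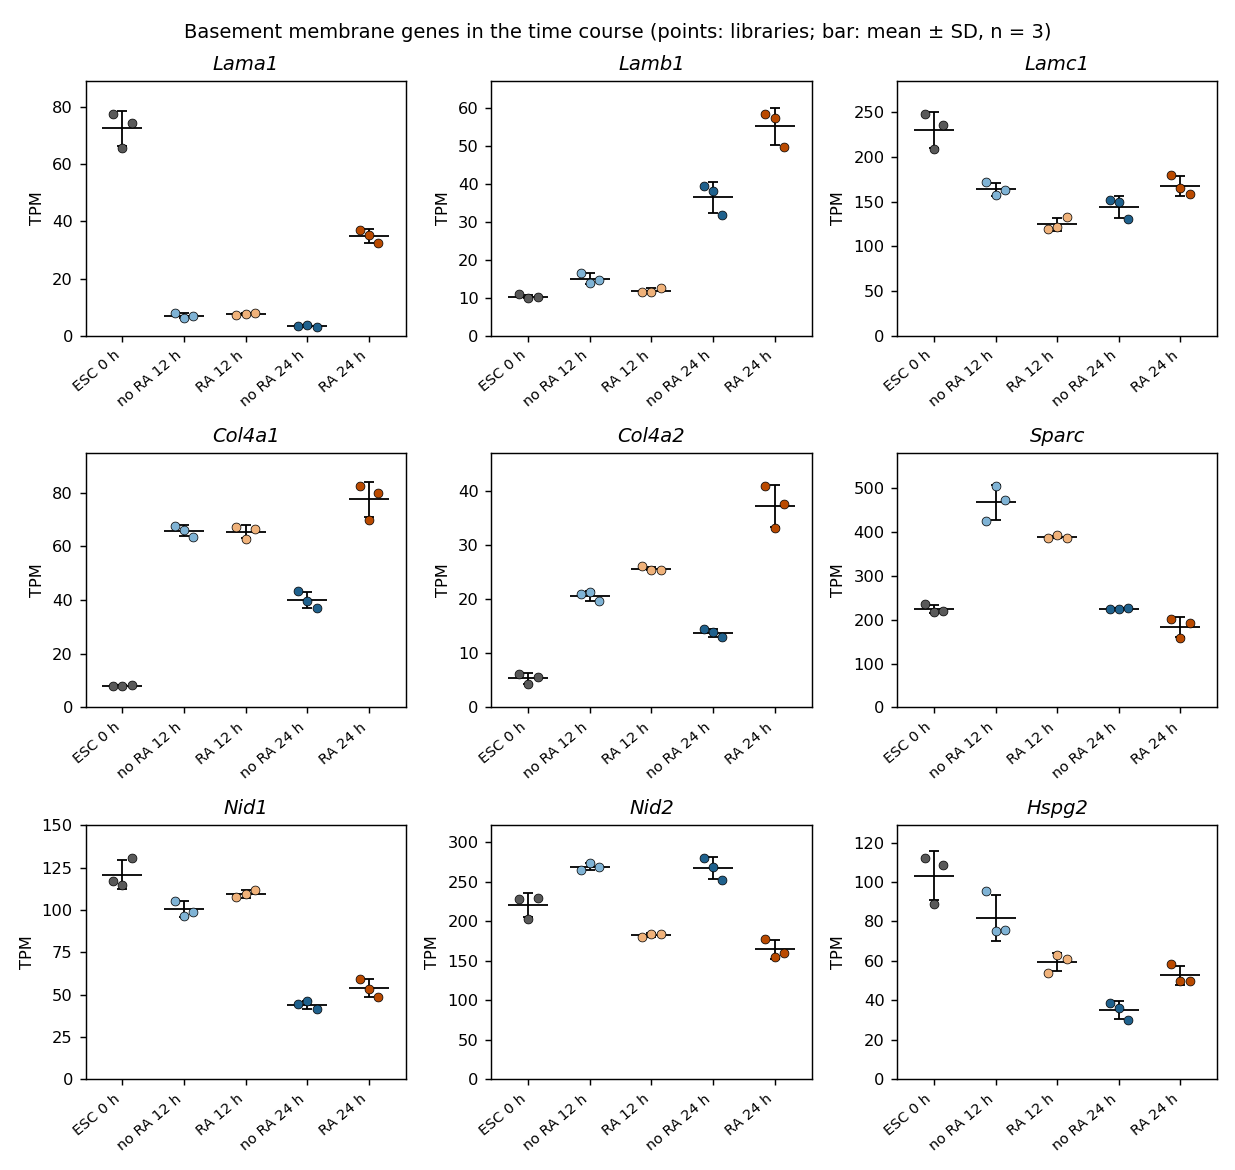
Levels of the 9 basement membrane genes in the 15 time course libraries, in TPM on a linear axis from 0. Points are libraries, the horizontal bar and whiskers are the mean and SD of 3 libraries, and Lama1 drops from 72.6 to 3.37 TPM without RA while it stands at 34.9 TPM after 24 h of RA.

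The collagen IV genes Col4a1 and Col4a2 rose from the lowest levels of the 9 genes with the loss of LIF and 2i, and at 24 h were higher with RA than without. Col4a1 stood at 8.09, 7.83 and 8.22 TPM in ESC_0h, 67.7, 66.3 and 63.5 TPM in noRA_12h and 43.2, 39.8 and 37.0 TPM in noRA_24h. With RA it stood at 67.2, 62.9 and 66.4 TPM at 12 h and at 82.4, 69.8 and 80.0 TPM at 24 h. The 2 groups at 12 h overlapped, and at 24 h every library with RA lay above every library without. The RA difference was -0.01 ± 0.0741 at 12 h (limma, adjusted p = 0.960) and 0.94 ± 0.0741 at 24 h (adjusted p = 5.76e-07), with a mean TPM 1.94 times as high.

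Col4a2 stood at 6.10, 4.25 and 5.65 TPM in ESC_0h, 20.99, 21.3 and 19.6 TPM in noRA_12h and 14.4, 13.9 and 13.0 TPM in noRA_24h. With RA it stood at 26.0, 25.4 and 25.4 TPM at 12 h and at 40.8, 33.1 and 37.5 TPM at 24 h. It lay higher with RA in every library at both times. At 12 h the difference of 0.30 ± 0.109 did not pass over all genes tested (limma, adjusted p = 0.0800), and at 24 h it was 1.36 ± 0.109 (adjusted p = 6.56e-07). The RA effect grew between the times by 0.94 ± 0.105 for Col4a1 and 1.06 ± 0.155 for Col4a2 (adjusted p = 1.18e-04 and 0.00102). The spans of the pair overlap by 22 bases on opposite strands, and strand is not stated for these libraries.

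Nid1, a nidogen that links laminin to collagen IV, was highest in the starting cells and lost level with time. Its level was 117, 115 and 131 TPM in ESC_0h, 106, 96.6 and 98.9 TPM in noRA_12h and 44.2, 46.3 and 41.2 TPM in noRA_24h. In the RA groups it was 107, 109 and 112 TPM at 12 h and 59.0, 53.6 and 48.5 TPM at 24 h. Every library with RA lay above every library without at both times, by a small margin. The difference was 0.12 ± 0.0765 at 12 h (limma, adjusted p = 0.309) and 0.28 ± 0.0765 at 24 h (adjusted p = 0.0117), and the 24 h call was lost without noRA_24h replicate 3 or RA_24h replicate 1 and when only these 2 groups were fitted (adjusted p = 0.0835).

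Nid2, its paralog, went the other way with RA. Its level was 229, 203 and 229.5 TPM in ESC_0h, 265, 274 and 269 TPM in noRA_12h and 280.4, 268 and 253 TPM in noRA_24h. With RA it was 179.7, 184 and 183 TPM at 12 h and 178, 155 and 160.5 TPM at 24 h. The noRA_12h and noRA_24h groups overlapped each other and stood above ESC_0h, and both RA groups stood below it. The RA difference was -0.56 ± 0.0633 at 12 h (limma, adjusted p = 3.27e-05) and -0.70 ± 0.0633 at 24 h (adjusted p = 2.01e-06). Nid2 overlaps Rtraf by 437 bases on the opposite strand, so reads there cannot be told apart. Rtraf stood at 341 ± 29.2 TPM in noRA_12h, 316 ± 4.83 TPM in RA_12h, 379 ± 13.6 TPM in noRA_24h and 338 ± 30.8 TPM in RA_24h, and its part in the Nid2 values was not tested.

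Hspg2 codes for perlecan, the heparan sulfate proteoglycan of the basement membrane. Its level was 112, 88.9 and 109 TPM in ESC_0h, 95.3, 75.0 and 75.4 TPM in noRA_12h and 38.8, 36.2 and 30.0 TPM in noRA_24h. With RA it was 54.0, 62.8 and 60.8 TPM at 12 h and 58.4, 49.7 and 50.0 TPM at 24 h. It lay lower with RA at 12 h and higher with RA at 24 h, where the cells without RA had the lowest level of the time course groups. The RA difference was -0.46 ± 0.125 at 12 h (limma, adjusted p = 0.0227) and 0.58 ± 0.125 at 24 h (adjusted p = 0.00271), and its change between the times was 1.04 ± 0.177 (adjusted p = 0.00291). With a correction for GC content and length the 12 h difference was -0.20 and did not pass (adjusted p = 0.204), and the 12 h call was also lost without noRA_12h replicate 1 or RA_12h replicate 1 or 3.

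Sparc, also called osteonectin or BM-40, binds collagens outside the cell. Its level was 235, 217 and 220.0 TPM in ESC_0h, 426, 505 and 472 TPM in noRA_12h and 223, 223 and 227 TPM in noRA_24h. With RA its level was 387, 392 and 386 TPM at 12 h and 200.5, 157 and 192 TPM at 24 h. It peaked at 12 h in both media, and lay lower with RA than without in every library at both times. The RA difference was -0.26 ± 0.0821 at 12 h (limma, adjusted p = 0.0430) and -0.30 ± 0.0821 at 24 h (adjusted p = 0.0126), and its change between the times was -0.03 ± 0.116 (adjusted p = 0.920). The 12 h call was lost in 10 of the 15 fits without 1 library, and the 24 h call when only these 2 groups were fitted (adjusted p = 0.0744).

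After 24 h of RA most of the basement membrane genes were higher than in cells kept as long without it. Lama1, Col4a2, Col4a1, Lamb1, Hspg2, Nid1 and Lamc1 were higher, and Nid2 and Sparc were lower. That is 7 higher and 2 lower of 9, where 35.2% of the 13948 genes tested were called in either direction, 22.8% higher and 12.5% lower. The median log2 change of the 9 was 0.58, beside 0.02 over all genes tested. Over all genes, 64.7% of the calls were higher. With a fit that corrects for GC content and gene length this share was 45.9%, and 6 of the 9 were called higher and 2 lower. With RA_24h replicate 2 left out, 7428 genes were called in place of 4915, and the 9 calls remained 7 higher and 2 lower. Fits without 1 library gave 5 to 7 higher, with 5 without noRA_24h replicate 3, and 2 lower in each. Median-of-ratios scaling and quantile normalization each gave 6 higher and 2 lower. With only these 2 groups fitted, the calls of Lamc1, Nid1 and Sparc were lost. In bulk RNA, fewer cells of a type and less RNA per cell cannot be told apart.

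After 12 h of RA none of the 9 was called higher than in noRA_12h. Lamb1, Lamc1, Sparc, Nid2 and Hspg2 were lower, with log2 differences of -0.26 to -0.56, and Lama1, Col4a1, Col4a2 and Nid1 did not pass. The count was 0 higher and 5 lower, beside 17.4% of genes called, 10.2% higher and 7.19% lower. The median was -0.26 for the 9 and -0.01 over all genes. These calls depended on the processing more than those at 24 h: FPKM in place of TPM gave 1 higher (Col4a2) and 3 lower, and correction for GC content and length gave 3 higher (Lama1, Col4a2 and Nid1) and 4 lower. Over all genes that correction took the share of higher calls from 58.7% to 44.1%. Nid2 and Lamc1 were called lower at 12 h in all 27 other settings, and without RA_12h replicate 1 or 3 the count of lower calls was 2.

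The RA effect itself differed between 12 h and 24 h for most of the genes. It grew for Lama1, Col4a2, Hspg2, Col4a1, Lamb1 and Lamc1, and for Lamb1, Lamc1 and Hspg2 it turned from lower to higher. The change was called for 6 of 9, all higher, beside 6.85% of all genes called, 4.17% higher and 2.68% lower. For Sparc, Nid1 and Nid2 it was -0.03 (interval of -0.29 to 0.22), 0.16 (-0.08 to 0.39) and -0.14 (-0.33 to 0.06), which did not pass. Higher genes were 60.8% of all calls, 46.6% with quantile normalization and 44.9% with the GC and length correction, and the same 6 genes were called higher in every setting run. With only RA-treated cells compared, RA_24h against RA_12h gave 5 higher (Lamb1, Lama1, Col4a2, Lamc1 and Col4a1) and 2 lower (Sparc and Nid1), beside 34.6% of genes called, 17.8% higher and 16.8% lower. Higher genes were 51.5% of those calls, and 38% with quantile normalization. The Col4a1 call among them was lost without any 1 of the RA_12h libraries or RA_24h replicate 1 or 3 (adjusted p of up to 0.0980). It was also lost with median-of-ratios scaling, quantile normalization, FPKM, the GC and length correction and only the groups compared. In all, 11 of the 27 other settings lost it, with an adjusted p of up to 0.132 (limma, median-of-ratios scaling).

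**Figure D2:**
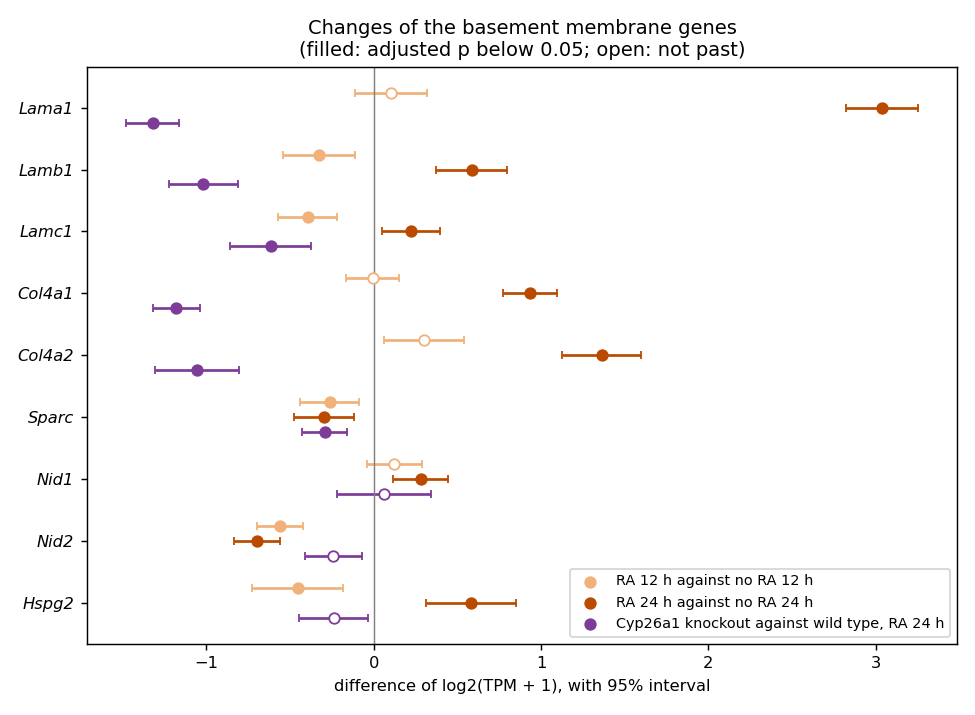
Differences in log2(TPM + 1) of the 9 genes for RA at 12 h, RA at 24 h and Cyp26a1 knockout, with 95% intervals from limma. Filled points passed an adjusted p of 0.05 and open points did not, and Lama1 lies at 3.04 with 24 h of RA and at -1.32 in the knockout.

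The loss of LIF and 2i without RA moved the same 9 genes in both directions. After 12 h Col4a1, Col4a2, Sparc, Lamb1 and Nid2 rose, with log2 changes of 2.88, 1.78, 1.05, 0.50 and 0.29 against ESC_0h. Lama1, Lamc1, Hspg2 and Nid1 fell, with changes of -3.20, -0.49, -0.33 and -0.26. These 5 higher and 4 lower stand beside 42.5% of genes called, 22% higher and 20.4% lower. Without ESC_0h replicate 3 the lower calls were 2, since Hspg2 and Nid1 were lost. The Hspg2 call was lost in 9 of the 15 fits without 1 library, and its groups overlapped. With the GC and length correction its change was 0.021 in place of -0.33 (adjusted p = 0.889).

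After 24 h without LIF and 2i Lamb1 had climbed further, by 1.72, while Nid1 and Hspg2 had fallen by 1.44 and 1.54 on the log2 scale. Lama1 had the largest change of the 9, -4.07, or 21.5 times lower in mean TPM. Of the 9 genes 4 were higher, 4 lower and 1, Sparc, not past (0.00 ± 0.0821, adjusted p = 0.979), beside 51.9% of genes called, 25.4% higher and 26.5% lower. RA_24h against ESC_0h gave 3 higher, Col4a1, Col4a2 and Lamb1 with log2 changes of 3.11, 2.60 and 2.31, and 6 lower, beside 50.6% called, 28.5% higher and 22.1% lower. Higher genes were 56.4% of those calls and 45.7% with the GC and length correction. Comparisons with ESC_0h share its libraries, and those of RA with no RA share the groups without RA.

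The proportions of partner chains, and of the nidogens, also differed between groups, read as TPM ratios within a library. In ESC_0h the ratio of Lama1 to Lamc1 was 0.313, 0.315 and 0.317, in noRA_24h it was 0.0222, 0.0247 and 0.0234, and in RA_24h it was 0.206, 0.213 and 0.204. Lamb1 to Lamc1 went from 0.0448 ± 0.00277 in ESC_0h to 0.253 ± 0.00805 in noRA_24h and 0.328 ± 0.0183 in RA_24h. The γ chain thus exceeded both partners in every library of the time course. Col4a1 to Col4a2 was 1.33, 1.84 and 1.45 in ESC_0h, 2.90 ± 0.0792 in noRA_24h and 2.09 ± 0.0599 in RA_24h, so Col4a1 was the higher of the pair throughout. Col4a1 to Col4a2 was also lower with RA at 12 h, 2.56 ± 0.0707 against 3.19 ± 0.0725, with no overlap. Nid1 to Nid2 was 0.5999 ± 0.00805 in RA_12h and 0.373 ± 0.0231 in noRA_12h, and 0.327 ± 0.0225 in RA_24h and 0.164 ± 0.00775 in noRA_24h. These ratios are a description, with no test.

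**Figure D3:**
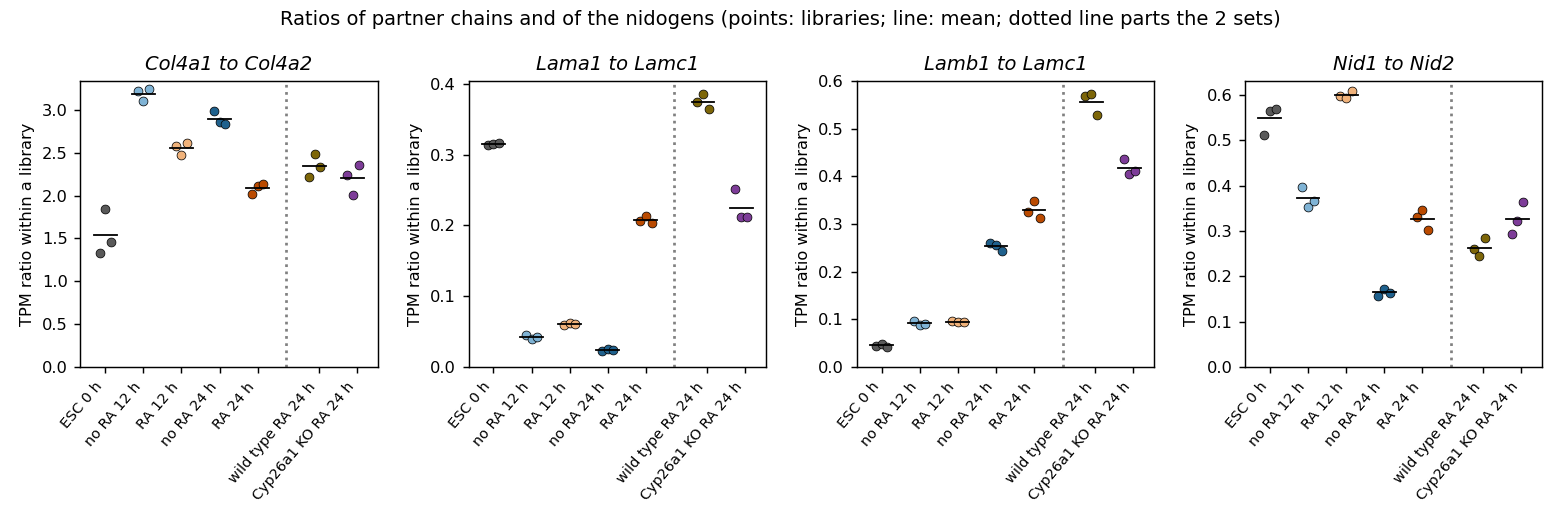
TPM ratios of partner chains and of the nidogens, 1 point per library with the mean as a line, on axes from 0. The dotted line parts the time course from the Cyp26a1 set, whose levels are not compared, and the Lama1 to Lamc1 ratio is 0.0234 in noRA_24h and 0.208 in RA_24h.

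In the Cyp26a1 set, where all cells had RA for 24 h, cells that lacked the RA-degrading enzyme had less RNA of the laminin-111 and collagen IV genes. Lama1 stood at 56.6, 51.8 and 53.6 TPM in wild type and at 20.3, 21.2 and 21.5 TPM in knockout cells, a log2 change of -1.32 ± 0.0661 (limma, adjusted p = 3.60e-04). Lamb1 stood at 86.1, 77.0 and 77.6 TPM and at 35.3, 40.6 and 41.7 TPM, a change of -1.02 ± 0.0854 (adjusted p = 0.00186). In both genes every knockout library lay below every wild type library, and the wild type mean was 2.57 and 2.05 times as high. Lamc1 stood at 151, 134 and 147 TPM and at 80.7, 100.3 and 102 TPM, a change of -0.62 ± 0.102 (adjusted p = 0.0162). The Lamc1 groups did not overlap either, but the call was lost without any 1 of the wild type libraries, with an adjusted p of up to 0.0876.

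Col4a1 stood at 68.1, 63.4 and 64.4 TPM in wild type and at 27.7, 28.8 and 28.2 TPM in knockout cells, a log2 change of -1.18 ± 0.0595 (limma, adjusted p = 3.60e-04). Col4a2 stood at 30.6, 25.5 and 27.5 TPM and at 12.3, 14.4 and 12.0 TPM, a change of -1.06 ± 0.105 (adjusted p = 0.00329). Both collagen chains were lower in every knockout library, and the Col4a1 to Col4a2 ratio was 2.35 ± 0.132 in wild type and 2.20 ± 0.176 in knockout cells, with overlapping libraries. Sparc stood at 167, 159 and 158 TPM and at 129.7, 138 and 126 TPM, a smaller change of -0.29 ± 0.0561 (adjusted p = 0.0247). The Sparc call was lost without any 1 of the wild type libraries or knockout replicate 1, and with median-of-ratios scaling, FPKM or no variance trend (adjusted p of 0.102, 0.0854 and 0.0526).

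The nidogens and perlecan did not pass in the knockout. Nid1 stood at 30.2, 25.2 and 29.7 TPM in wild type and at 25.6, 31.0 and 32.6 TPM in knockout cells, which overlap, with a change of 0.06 and an interval of -0.22 to 0.34 (limma, adjusted p = 0.832). Nid2 stood at 117, 102 and 105 TPM and at 86.9, 96.3 and 89.8 TPM, with a change of -0.24 and an interval of -0.41 to -0.07 (adjusted p = 0.0842). Hspg2 stood at 33.5, 30.2 and 30.7 TPM and at 24.0, 27.3 and 28.3 TPM, with a change of -0.24 and an interval of -0.45 to -0.03 (adjusted p = 0.141). Nid2 and Hspg2 were lower in every knockout library, by margins that did not survive adjustment over all genes.

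Of the 9 genes 6 were lower, none was higher and 3 did not pass in the knockout, beside 9.99% of the 12848 genes tested, 3.34% higher and 6.65% lower. The median log2 change was -0.62 for the 9 and -0.05 over all genes. Higher genes were 33.4% of all calls, 48.4% with median-of-ratios scaling, 45.3% with quantile normalization and 51.9% with the GC and length correction. Lama1, Lamb1, Col4a1 and Col4a2 were called lower in every setting run. The summed level of the 9 genes was 668.5 to 740.2 TPM in wild type and 442.5 to 498.2 TPM in knockout cells. The number of genes called in the whole table depended strongly on single libraries: it was 1284 with all 6, 293, 325 and 301 without wild type replicate 1, 2 and 3, and 677, 510 and 3160 without knockout replicate 1, 2 and 3.

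**Figure D4:**
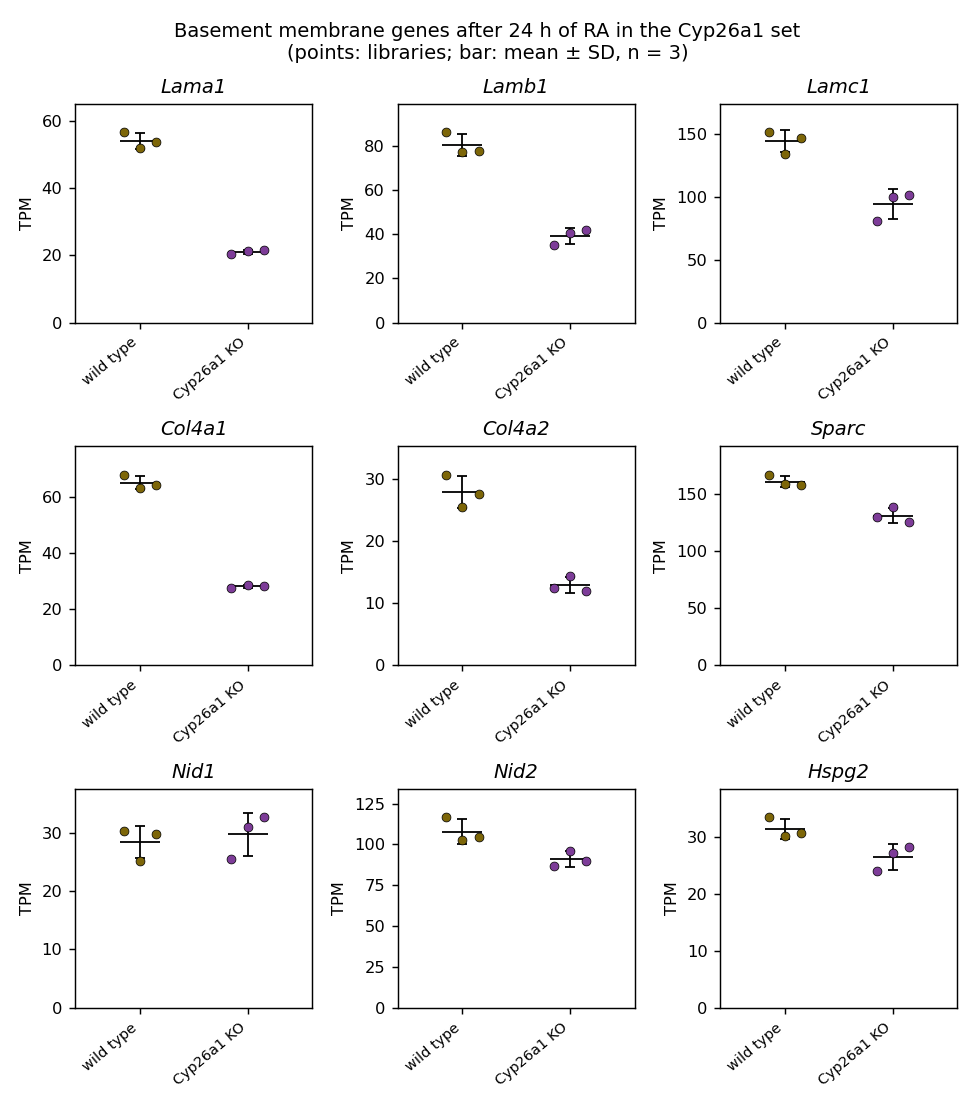
Levels of the 9 genes in wild type and Cyp26a1 knockout cells after 24 h of RA, in TPM on a linear axis from 0. Points are libraries, bars are the mean and SD of 3, and the knockout means of Lama1, Lamb1, Col4a1 and Col4a2 (20.999, 39.2, 28.2 and 12.9 TPM) lie below the wild type means (54.0, 80.3, 65.3 and 27.9 TPM).

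Other laminin α and β chains did not follow the same course. From here on, genes that rose or fell at 24 h of RA were higher or lower than in noRA_24h. At 24 h of RA Lama5 and Lama3, α chains of other laminins, fell by 0.30 and 0.55, while Lamb2, the β2 chain, did not pass (0.06 ± 0.129, limma adjusted p = 0.728). Lama5 went from 66.7 ± 7.10 TPM in ESC_0h to 35.8 ± 3.15 TPM in noRA_24h and 29.0 ± 1.88 TPM in RA_24h, so that Lama1 and Lama5 were near each other in RA_24h. In the knockout none of these 3 passed, with log2 changes of 0.34 for Lama5, 0.08 for Lama3 and -0.08 for Lamb2. Col4a3, Col4a4, Col4a5 and Col4a6, the collagen IV chains of other basement membranes, had group means of 0.312 TPM or less in the time course.

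Of 21 further basement membrane components 13 were tested in the time course, and at 24 h of RA 8 were higher, 2 lower and 3 not past, beside 22.8% and 12.5% of all genes, with a median log2 change of 0.36. Tinagl1, a tubulointerstitial nephritis antigen-like matrix protein, rose by 2.73 from 4.26 ± 0.203 TPM. Fbln1 (fibulin-1) rose from 33.7 ± 2.77 to 87.4 ± 9.55 TPM, and Egflam (pikachurin) and Bgn (biglycan) rose by 1.01 and 0.80 from low levels. Col18a1 and Pxdn fell. Pxdn, peroxidasin, which crosslinks collagen IV, stood at 16.6 ± 0.625 TPM without and 10.8 ± 0.702 TPM with RA, and in the knockout it was lower again, with 3.76 ± 0.701 TPM against 8.75 ± 0.662 TPM. There 3 of the 10 tested were lower (Pxdn, Egflam and Smoc1), none higher and 7 not past, beside 6.65% and 3.34% of all genes. Tinagl1 did not pass there (0.19 ± 0.119, limma adjusted p = 0.397).

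Genes that fold, modify and export collagen and laminin changed in part. Of 20 tested, 5 were higher, 1 lower and 14 not past at 24 h of RA, a share near that of all genes tested. Serpinh1, the collagen chaperone HSP47, had the largest change, from 17.2 ± 1.48 to 71.3 ± 8.84 TPM (1.98 ± 0.103, limma adjusted p = 1.01e-08). Creb3l2, a transcription factor of the secretory pathway, and P4ha2, a subunit of collagen prolyl 4-hydroxylase, rose by 1.27 and 0.76, and P3h4, a partner of collagen-modifying enzymes, fell by 0.80. In the knockout 6 were lower and 14 not past, beside 6.65% of all genes called lower. The 6 were Serpinh1 (162 ± 1.53 to 79.1 ± 6.71 TPM), P4ha2, Sec24d, a coat protein of vesicles that leave the endoplasmic reticulum, P4ha1, Creb3l2 and the lysyl hydroxylase Plod1.

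Receptors and anchors for the basement membrane were split at 24 h of RA. Of 18 tested 9 were higher, 4 lower and 5 not past, beside 22.8% and 12.5% of all genes. Itgb3, Bcam and Itga3 rose by 1.10, 0.88 and 0.83. Bcam, a receptor for laminin α5, stood at 162 ± 4.92 TPM without and 302 ± 41.1 TPM with RA, and Itga3, the α chain of a laminin-binding integrin, at 59.2 ± 2.43 and 106 ± 9.22 TPM. Ddr1, a receptor tyrosine kinase for collagen, fell by 1.03, from 37.7 ± 0.332 to 18.1 ± 2.43 TPM. In the knockout 1 of 18, the syndecan Sdc2, was lower and the other 17 did not pass, beside 6.65% of all genes called lower.

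The list of matrix proteases and their inhibitors also held Hpse and Heg1, which are neither. Both lay higher in every RA_24h library than in any noRA_24h library, and lower in every knockout library than in any wild type library. Of the whole list 16 were tested, and 9 were higher, 3 lower and 4 not past at 24 h of RA. This stands beside 22.8% and 12.5% of all genes, and the median log2 change of the 16 was 0.76. Mmp9, a gelatinase that cleaves collagen IV, rose from 3.35 ± 0.385 to 35.2 ± 3.45 TPM, Plat and Bmp1 rose by 1.76 and 1.46, and Timp3, a matrix-bound inhibitor, fell by 1.39. In the knockout 7 of 15 were lower and 2 higher, beside 6.65% and 3.34% of all genes. Among the lower were Mmp9 (37.1 ± 1.29 to 26.3 ± 2.91 TPM) and Plat, also a parietal endoderm marker below (11.1 ± 0.797 to 4.96 ± 0.824 TPM). Bmp1 was among the higher.

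Markers of cell types were read beside the 9 genes. Of 12 primitive endoderm regulators 10 were higher, none lower and 2 not past at 24 h of RA, beside 22.8% and 12.5% of all genes. The median log2 change of the 12 was 2.65. At 12 h 4 were higher and 1 lower, beside 10.2% and 7.19%. Gata6 went from 1.27 ± 0.405 to 64.6 ± 5.87 TPM and Gata4 from 0.297 ± 0.0399 to 15.7 ± 1.87 TPM. At 12 h of RA Gata6 stood at 17.9 ± 1.88 TPM and Gata4 at 0.996 ± 0.325 TPM, while Lama1 was at 7.58 ± 0.491 TPM. In the knockout 8 of the 12 regulators were lower, none higher and 4 not past, beside 6.65% and 3.34% of all genes. Gata6 stood at 144 ± 6.50 TPM in wild type and 66.9 ± 1.67 TPM in knockout cells, and Gata4 at 31.0 ± 1.99 and 9.30 ± 0.826 TPM. The summed level of the 12 regulators was 207.4 to 218 TPM in noRA_24h and 412.7 to 450.2 TPM in RA_24h, and 560.7 to 603.5 TPM in wild type and 364.7 to 391.3 TPM in knockout cells. None of the 12 was at 0 in a whole group, and their part in the changes of the 9 genes was not tested.

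Of 9 parietal endoderm markers tested 7 were higher, 1 lower and 1 not past at 24 h of RA, beside 22.8% and 12.5% of all genes. In the knockout 5 were lower, none higher and 4 not past, beside 6.65% and 3.34%. Stra6, a receptor for retinol-binding protein, rose from 1.42 ± 0.0533 to 40.1 ± 4.82 TPM with 24 h of RA. The marker that was lower there was Fst, with a mean of 6.16 TPM without and 2.01 TPM with RA. Thbd, a defining parietal marker, stayed at 0.266 TPM or less in every time course group. Of 7 visceral endoderm markers tested 4 were higher and 2 lower at 24 h of RA, beside 22.8% and 12.5% of all genes. Dab2, among the higher, stood at 4.42 ± 0.461 TPM in RA_24h. The lower were Lrp2 (mean of 26.34 TPM without and 10.97 TPM with RA) and Apoe (318.6 and 232.6 TPM). The summed level of all 13 visceral markers overlapped, with 573.7 to 625.4 TPM in noRA_24h and 495 to 588.6 TPM in RA_24h. Afp, Ttr and Apoa1 had group means of 0.511 TPM or less in the time course. In the knockout 3 of the 7 visceral markers tested were lower and 1 higher, beside 6.65% and 3.34% of all genes. Dab2 stood at 18.7 ± 0.738 TPM in wild type and 3.96 ± 0.376 TPM in knockout cells. Apoe (means of 226.3 and 270.8 TPM) and Rhox5 (256.8 and 334.2 TPM) went the other way, with no overlap of libraries. The summed level of all 13 visceral markers was 523.2 to 536.9 TPM in wild type and 572.4 to 672.9 TPM in knockout cells.

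Fibroblasts also make collagen IV, nidogens and Sparc, and their 12 markers summed to 19.73 to 28.77 TPM over the time course libraries and 13.41 to 19.99 TPM in the Cyp26a1 set. At 24 h of RA 5 of 9 tested were higher and 2 lower, beside 22.8% and 12.5% of all genes. Pdgfrb, Col6a1 and Twist1 were among the higher, with log2 changes of 1.41, 0.92 and 0.80, and Thy1 among the lower with -2.15. Pdgfrb went from 2.07 to 7.2 TPM and Thy1 from 13.3 to 2.22 TPM. In the knockout none of 4 passed, where 9.99% of all genes did. Col3a1, a defining fibroblast collagen, had group means of 0.261 TPM or less in the time course, and Lum was listed at 0 in 4 of its 5 groups and in the whole Cyp26a1 set. Pluripotent cell markers summed to 4388 to 4446 TPM in noRA_24h and 3368 to 3859 TPM in RA_24h. Of the 8, 5 were lower and 2 (Klf4 and Nanog) higher, beside 12.5% and 22.8% of all genes. Pluripotent markers summed to 2392 to 2418 TPM in wild type and 3117 to 3453 TPM in knockout cells. There 6 of 8 were higher and none lower, beside 3.34% and 6.65% of all genes. Pou5f1, a defining marker of ESCs, was at 2364 ± 231 TPM in RA_24h and at 1621 ± 16.9 TPM in the wild type cells of the Cyp26a1 set, and it was expressed in every group. How far these markers take part in the changes of the 9 genes was not tested.

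**Figure D5:**
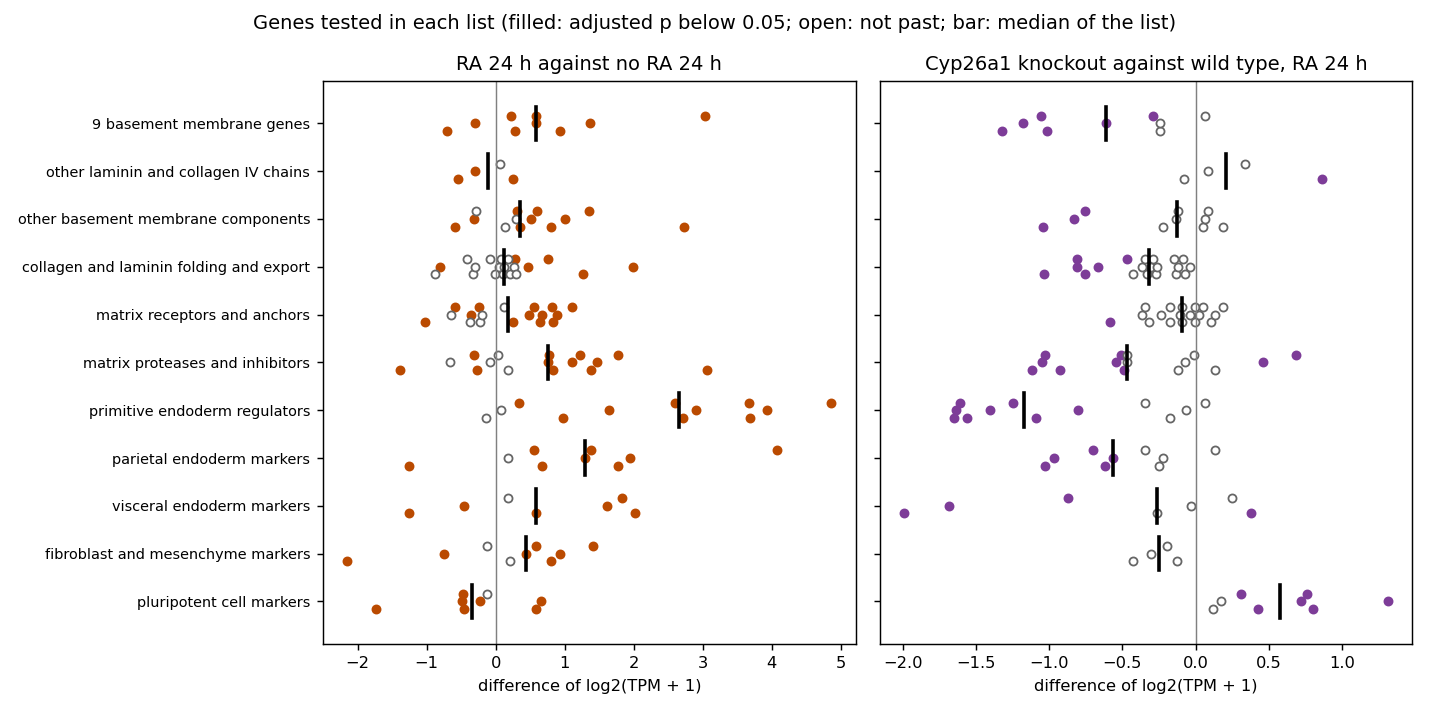
Differences in log2(TPM + 1) for each gene tested in 11 lists, with RA at 24 h on the left and Cyp26a1 knockout on the right. Each point is a gene, filled where the adjusted p was below 0.05, and the black bar is the median of the list, which is 0.58 and -0.62 for the 9 basement membrane genes and 2.65 and -1.17 for the primitive endoderm regulators.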

How the data were processed

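Gene abundance tables, 1 for each library, were used as deposited. The processing notes of the submitters name HISAT2, StringTie and the mm10 genome, with versions not given in the sources used here. Per the file headers, the authors' TPM values are scaled for gene length to 1 sum per library, and the deposited FPKM values are scaled for gene length and library size. The deposited coverage (signal) is mean read depth per base, and its most frequent ratio to FPKM in a library gave the aligned gigabases. Strand is not stated, so overlapping and antisense genes are uncertain.

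Rows of the same gene were summed. A gene was tested where 3 or more libraries of its set reached 1 TPM. The test was limma 3.58.1 (R 4.3.3) on log2(TPM + 1) with a variance trend, with p-values adjusted by Benjamini-Hochberg over all genes tested and a threshold of 0.05. One model held the 15 time course libraries and another the 6 of the Cyp26a1 set, and levels were never compared between sets. On this scale the pseudocount shrinks the differences of low genes. The 9 members, the 12 other lists and the comparisons were chosen with earlier results of these data known. From each other list up to 4 genes with the largest called change at 24 h of RA were picked to be named. Not all of these are named above, and genes named beyond those were chosen after their values were seen. A gene of the list of other chains is not reported here. Same-numbered libraries of the Cyp26a1 set deviated together (r of 0.189 to 0.536 over 3 pairs). The labels state no pairing, and 3 pairs cannot establish it. The main fit held no block for the replicate numbers. Alternatives were a pseudocount of 0.1, all genes unfiltered, a filter on mean TPM of 5, scaling by median ratios, quantile normalization, FPKM, no variance trend, a replicate block, a correction for GC content and length (alone and with the block), fits of only the groups compared, and each library left out. Leaving out 2 libraries together was added after the data were seen. The fits were tested on simulated data. Tables and figures were made in Python 3.11.15 with pandas 2.3.3, numpy 2.4.6 and matplotlib 3.10.9.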

Additional observations from a re-analysis of the deposited data

Results flagged for a closer look

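The RA effect differed between 12 h and 24 h for 6 of the 9 basement membrane genes by the test of that difference (limma, adjusted over 13948 genes). The effect at 24 h exceeded that at 12 h by 2.93 for Lama1, 0.91 for Lamb1, 0.62 for Lamc1, 0.94 for Col4a1, 1.06 for Col4a2 and 1.04 for Hspg2, on the log2(TPM + 1) scale, with adjusted p of 1.58e-07, 0.00146, 0.00486, 1.18e-04, 0.00102 and 0.00291. For Lamb1, Lamc1 and Hspg2 every library with RA lay below every library without at 12 h and above at 24 h. How many of all genes did so was not counted. The 12 h calls of Lamb1 and Hspg2 were lost in 9 and 6 of the 27 other settings, and the 24 h call of Lamc1 in 16.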

How the results depend on the processing

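Of 59 called results of single members over the 8 comparisons, 47 kept direction and call under every setting run, and 12 did not, of which 1 reversed. Of 13 results not called, 2 kept direction and stayed uncalled under every setting run, and 11 did not, of which 4 reversed. The rest of the 11 kept direction but were called under some setting. They were Lama1, Col4a2 and Nid1 with RA at 12 h, and Hspg2 in the knockout. Also among them were Nid2 in the change of the effect, and Nid2 and Hspg2 in RA_24h against RA_12h. The reversals were small. For Hspg2 in noRA_12h against ESC_0h the value went from -0.33 to 0.021 with the GC and length correction, with or without replicate block. For Col4a1 with RA at 12 h it went from -0.01 to 0.013 (quantile normalization), 0.052 (FPKM), 0.059 (GC and length correction, with or without the block) and 0.013 without noRA_12h replicate 1 and RA_24h replicate 2. For Sparc in noRA_24h against ESC_0h it went from 0.00 to -0.044 (quantile normalization) and -0.013 (FPKM). Leaving out 1 library gave -0.032 to 0.022 for Col4a1 with RA at 12 h, -0.019 to 0.038 for Sparc in noRA_24h against ESC_0h, -0.10 to 0.071 for the change of the Sparc effect (0.14 without both libraries) and -0.019 to 0.16 for Nid1 in the knockout. Members lower with RA at 12 h were 5, but 3 with quantile normalization, FPKM, only the groups compared and both libraries left out, and 2 to 5 without 1 library. They were 4 with median-of-ratios scaling and the GC and length correction. At 12 h Sparc was also lost with no filter, no variance trend and the replicate block, and Hspg2 with the correction and block together. Members higher there were 0, but 1 with FPKM or only the groups compared, 3 with the GC and length correction with or without the block, and 0 to 1 without 1 library. Members higher with RA at 24 h were 7, but 6 with median-of-ratios scaling, quantile normalization and the GC and length correction, and 5 to 7 without 1 library. With only the groups compared, Lamc1 and Nid1 were both lost from these. Lamc1 was also lost with no filter, no variance trend and the replicate block, with or without the correction. Members lower with RA at 24 h were 2, but 1 with FPKM and only the groups compared. Members lower in the change of the effect were 0, but 1 (Nid2) with the GC and length correction with or without the block, and members lower in RA_24h against RA_12h were 2, but 4. Members lower in noRA_12h against ESC_0h were 4, but 3 with median-of-ratios scaling and the GC and length correction, and 2 to 4 without 1 library. Hspg2 was also lost there with no filter, no variance trend, only the groups compared, and the correction and block together. Genes called with RA at 12 h were 2431 and with the GC and length correction 3688. With RA at 24 h they were 4915, 3720 to 7428 without 1 library and 8218 without both. For the change of the effect they were 955, 599 with quantile normalization, 1536 with the correction, 641 to 1545 without 1 library and 4000 without both. In the knockout they were 1284 and 293 to 3160, with 4 to 7 members lower. The cause of these shifts was not tested.

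Replicate numbers did not pair the time course libraries (r of -0.837 to 0.415, 7 of 30 pairs over 0.1). The replicate block ended the calls of Sparc with RA at 12 h (-0.26, adjusted p = 0.0757) and Lamc1 with RA at 24 h (0.22, adjusted p = 0.0526) and changed no other member call, in the knockout included.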

Other observations

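Over the 15 time course libraries the profiles of the members were compared as Pearson r of log2(TPM + 1), a description over libraries that share groups and depth. Col4a1 and Col4a2 had an r of 0.956, Nid1 and Hspg2 0.862 and Lama1 and Lamc1 0.799, while Lamb1 and Nid1 had -0.914. Genes most like single members were Zfp516 for Lama1 (0.973), Tro for Lamb1 (0.973), Nefh for Col4a1 (0.991), Alox15 for Col4a2 (0.994), Sall4 for Sparc (0.991), Bahcc1 for Nid2 (0.971), Nynrin for Hspg2 (0.971) and Gcn1 and Plekhg2 for Lamc1 (0.936 each). To the mean of the 9 profiles Gbf1 (0.926) and Arhgef11 (0.915) came nearest.

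Markers of trophoblast and of endothelium, other cells that lie on basement membranes, were also read. Of 7 trophoblast markers tested 5 were higher and none lower at 24 h of RA, beside 22.8% and 12.5% of all genes. Tfap2c stood at 2.46 ± 0.554 TPM without and 10.9 ± 0.998 TPM with RA, and Tpbpa was listed at 0 in every group. Of 4 endothelial markers tested 1 (Plvap, 1.70) was higher and 2 (Kdr, -0.84, and Tek, -0.74) lower, beside the same shares. In the knockout 1 of 6 trophoblast and 1 of 4 endothelial markers were higher and none lower, beside 3.34% and 6.65% of all genes. The part of these cells in the member values was not tested.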
